A study of Mus musculus with 36 samples.

Results

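The C-type lectin receptor genes Clec4d, Clec4e, Clec4n, Clec5a, Clec7a, Clec10a and Clec12a were followed in mouse bone marrow-derived macrophages, which are macrophages grown in culture from bone marrow cells, given lipopolysaccharide (LPS, a component of the outer membrane of Gram-negative bacteria). The 7 genes were chosen by name and matched by symbol among 36528 genes of the deposited tables. All 7 were found, and all 7 passed the filter on low counts. The macrophages came from 3 mice with a floxed Cop1 gene (Cop1-floxed, the group labelled Loxp) and 3 mice with wild-type Cop1 (WT). Cop1 is a ubiquitin ligase subunit. Mice of both genotypes carry Rosa26-CreERT2, a Cre recombinase at the widely expressed Rosa26 locus that acts once an oestrogen receptor ligand such as tamoxifen is given. Whether and when such a ligand was given, and which part of Cop1 is deleted, are not given in the sources used here. Cells of each mouse were sampled untreated (T0) and at the times labelled T2.5, T4, T6, T9 and T13 after 100 ng/ml LPS was added on day 7 of differentiation. This makes 36 libraries in 12 groups of 3 mice. The unit of the time labels is not given in the sources used here.

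C-type lectin receptors sit on the surface of myeloid cells and bind sugars and lipids of microbes or products of dying cells. Clec7a (Dectin-1), which binds fungal beta-glucan, signals through the kinase Syk by a tyrosine motif of its own. Clec4e (Mincle), Clec4d (MCL) and Clec4n (Dectin-2) reach Syk through the adaptor FcR gamma, encoded by Fcer1g. Clec5a (MDL-1) does so through the adaptor DAP12, encoded by Tyrobp, and downstream of Syk a complex of Card9, Bcl10 and Malt1 leads to NF-kB. Clec12a (MICL) is an inhibitory receptor that recruits phosphatases, and Clec10a (MGL1) binds galactose-type sugars and takes up its ligands.

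Library totals ran between 24069541 and 40298009 counts with a median of 34549113, and 15685 genes were tested. The factors by which TMM scales library totals were 1.53 to 1.73 in untreated libraries and 0.747 to 1.12 with LPS. Levels are given below as CPM, which are counts scaled to a common library size with the TMM-scaled totals, and levels of different genes are compared only as deposited RPKM, which accounts for gene length. A gene is said to have risen or fallen, or to be called, where the adjusted p of edgeR's quasi-likelihood test was below 0.05. Cop1 was 0.432 to 0.616 times as high in Cop1-floxed as in WT libraries, and the groups did not overlap at any of the 6 times. The 12 macrophage markers (among them Adgre1 and Csf1r) were measured in every group, and their summed level was 20700 to 31400 CPM in Cop1-floxed groups and 18600 to 26600 CPM in WT groups. Lymphocyte markers summed to at most 3.09 CPM. The 12 dendritic cell markers summed to 120 to 215 CPM with LPS in Cop1-floxed cells, against 35.2 to 55.7 CPM at T0, and to 161 to 316 CPM with LPS in WT cells, against 53.5 to 130 CPM at T0. At T9, 7 of the 9 tested were called higher in each genotype, with a median log2 fold change of 2.86 in Cop1-floxed and 2.10 in WT cells. Of all genes tested, 32.5% were called higher and 38.4% lower at T9 in Cop1-floxed cells, and 32.3% and 37.9% in WT cells. The defining marker Cd209a had no counts in any LPS group of Cop1-floxed cells or at T13 in WT cells. The 12 neutrophil and immature myeloid markers summed to 138 to 142 CPM at T6 in Cop1-floxed cells, against 92.0 to 102 CPM at T0, and to 83.7 to 93.6 CPM at T6 in WT cells, against 66.1 to 152 CPM at T0. Of 11 tested, 4 were called higher and 1 lower at T6 in Cop1-floxed cells, and 2 higher and 5 lower in WT cells. The shares over all genes at T6 were 32.6% higher and 37.7% lower in Cop1-floxed cells, and 32.1% and 38.4% in WT cells. Ly6g, which defines neutrophils, had no counts in these T6 groups. The part of these markers in the LPS changes below was not tested.

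The genes lie in clusters. On GRCm38.p6, chromosome 6 holds Clec4n (123229843-123247024), Clec4d (123262107-123275268) and Clec4e (123281789-123289871) side by side, Clec12a (129349783-129365303) and Clec7a (129461591-129472785) further along, and Clec5a (40574898-40585805) apart from them. Clec10a (70166623-70170836) is on chromosome 11. RefSeq promoter windows of GRCm38.p6 were at hand for 5 of the 7 genes. The 250 bases before the start are printed for the adjoining pair Clec4d and Clec4e, for Clec5a, which together with Clec4e had the largest LPS rises, and for Clec7a, which had the deepest fall. Capitals mark matches, on either strand, to the C/EBP motif TTNNGNAA, the AP-1 motif TGANTCA, the ETS-type motif GAGGAA or the NF-kB motif. GGAA without GA before it was not searched for and is not marked.
Clec4d (chr6:123261857-123262106, plus strand): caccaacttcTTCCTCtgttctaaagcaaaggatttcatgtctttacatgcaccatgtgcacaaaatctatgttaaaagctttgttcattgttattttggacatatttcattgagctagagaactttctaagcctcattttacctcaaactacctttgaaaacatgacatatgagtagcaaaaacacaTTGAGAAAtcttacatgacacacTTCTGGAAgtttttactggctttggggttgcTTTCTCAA
Clec4e (chr6:123289872-123290121, minus strand): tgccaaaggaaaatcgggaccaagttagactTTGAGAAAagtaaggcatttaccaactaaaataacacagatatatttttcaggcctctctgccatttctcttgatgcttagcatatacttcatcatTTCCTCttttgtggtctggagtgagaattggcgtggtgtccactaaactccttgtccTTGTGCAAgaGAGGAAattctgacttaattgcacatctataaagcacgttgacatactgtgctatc
Clec5a (chr6:40585806-40586055, minus strand): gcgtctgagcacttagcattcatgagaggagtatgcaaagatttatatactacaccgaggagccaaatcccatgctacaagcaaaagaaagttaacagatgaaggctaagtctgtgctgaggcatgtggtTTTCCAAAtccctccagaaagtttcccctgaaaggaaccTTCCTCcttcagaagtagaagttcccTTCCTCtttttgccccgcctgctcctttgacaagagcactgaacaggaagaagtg
Clec7a (chr6:129472780-129473029, minus strand): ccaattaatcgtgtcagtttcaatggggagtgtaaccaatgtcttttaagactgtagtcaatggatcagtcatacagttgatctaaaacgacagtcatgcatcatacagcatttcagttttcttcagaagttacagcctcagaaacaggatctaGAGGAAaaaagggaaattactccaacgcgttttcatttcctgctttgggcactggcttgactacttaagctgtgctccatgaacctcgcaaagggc

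The Clec4d window held 3 C/EBP matches, the nearest ending 1 base before the start, and 1 ETS match. The Clec4e window held 2 of each, and one C/EBP and one ETS match stood near each other, at 66 to 59 and 56 to 51 bases before the start. Clec5a had 1 C/EBP and 2 ETS matches, and Clec7a had 1 ETS match. The Clec12a window (chr6:129349994-129350243, plus strand), not printed, had 2 C/EBP, 2 ETS and 1 AP-1 match. It lies before a start inside the gene bounds given above, and not before their first base. No match overlapped one of another motif, and no NF-kB match was found in these windows. Among 32841 promoter windows of the same length, 36.9% held the C/EBP motif, 23.3% the ETS-type motif GAGGAA, 6.75% the AP-1 motif and 7.25% the NF-kB motif. The matches describe the sequence and show no binding.

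Per length, Clec4d was the most abundant of the receptors in every group. In untreated cells its mean was 795 RPKM in Cop1-floxed and 581 RPKM in WT macrophages, rank 26 and rank 39 among all genes. Clec12a followed at 143 RPKM in Cop1-floxed and 100 RPKM in WT cells. Clec4n (84.9 and 81.2 RPKM in Cop1-floxed and WT cells) and Clec7a (84.7 and 81.2 RPKM) did not differ beyond the spread of their libraries. Clec4e (11.5 and 8.54 RPKM), Clec5a (4.72 and 2.51 RPKM) and Clec10a (0.716 and 1.21 RPKM) came last, in that order, each without overlap with the next.

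LPS remade this order. At T9 Clec4e stood second, at 1090 RPKM in Cop1-floxed and 1020 RPKM in WT cells, against 1550 and 1160 RPKM for Clec4d. The ratio of Clec4e to Clec4d RPKM within a library, which no scaling of libraries can change, was 0.619 to 0.745 at T9 in Cop1-floxed cells, against 0.0116 to 0.0179 at T0. In WT cells it was 0.838 to 0.904 at T9, against 0.0125 to 0.0201 at T0. At T13 the Clec4e and Clec4d libraries of Cop1-floxed cells overlapped (761 and 797 RPKM on average), and those of WT cells did not (593 and 661 RPKM).

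Clec4e thus made up 41.0% ± 1.70 (SD, n = 3) of the summed RPKM of the 7 genes at T13 in Cop1-floxed cells, against 1.02% ± 0.250 at T0, and 38.8% ± 2.45 at T13 in WT cells, against 1.01% ± 0.255 at T0. The summed RPKM itself was 2860 to 3550 at T6 in Cop1-floxed cells, against 1010 to 1210 at T0, and 2300 to 2350 at T6 in WT cells, against 769 to 947 at T0. The share of Clec7a was 0.626% ± 0.133 at T13 in Cop1-floxed cells, against 7.55% ± 1.48 at T0, and 0.909% ± 0.0852 at T13 in WT cells, against 9.63% ± 2.19 at T0.

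**Figure D1:**
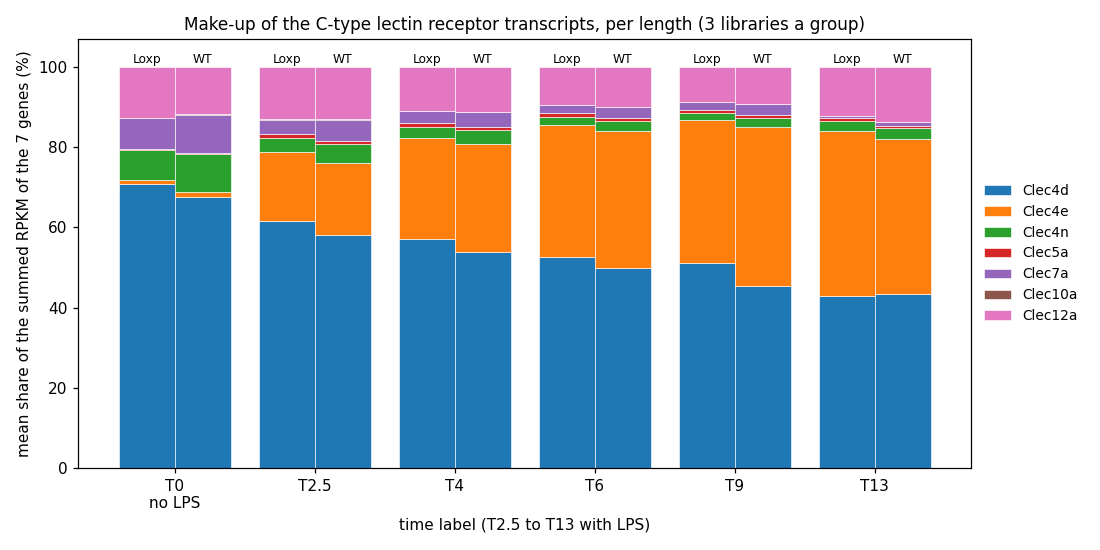
Stacked bars give the mean share (%) of each receptor gene in the summed deposited RPKM of the 7 genes at each time label, with Cop1-floxed (Loxp) left of WT, from 3 libraries a group. Clec4e widens from about 1.02% at T0 to 41.0% at T13 in Cop1-floxed cells, while Clec4d narrows and stays the largest.

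Against untreated cells of the same genotype, 5 of the 7 genes rose at T2.5 in both genotypes (Clec4d, Clec4e, Clec5a, Clec10a and Clec12a), and the same 5 rose at T4. With the same threshold 29.0% of all genes tested were called higher and 28.0% lower at T2.5 in Cop1-floxed cells, and 28.8% and 30.0% in WT cells. At T4 these shares were 31.7% higher and 35.1% lower in Cop1-floxed cells, and 31.5% and 36.4% in WT cells. From T6 on, genes fell as well. In Cop1-floxed cells 5 rose and 2 fell at T6 (background 32.6% higher and 37.7% lower), 4 rose and 2 fell at T9 (32.5% and 38.4%), and 3 rose and 3 fell at T13 (30.8% and 35.0%). In WT cells 4 rose and 2 fell at T6 (32.1% and 38.4%), 4 rose and 1 fell at T9 (32.3% and 37.9%), and 3 rose and 3 fell at T13 (32.6% and 34.7%). The median log2 fold change of the 7 genes was 0.98 at T6 in Cop1-floxed and 0.90 in WT cells, beside -0.12 and -0.15 over all genes tested. At T13 it was -0.06 and 0.16, beside -0.11 and -0.08. Scaling by library totals in place of TMM moved the median of all genes by far more, to between -0.64 and -1.16 in Cop1-floxed and between -0.72 and -1.10 in WT cells. The fold changes below are relative to the TMM scaling. With library totals 4 of the 7 genes rose and 2 fell at T2.5 in both genotypes, and 2 rose and 2 fell at T4. In Cop1-floxed cells 2 then rose and 2 fell at T6, 2 rose and 3 fell at T9, and 2 rose and 4 fell at T13. In WT cells 2 rose and 3 fell at T6, 3 rose and 3 fell at T9, and 3 rose and 4 fell at T13. Clec4e and Clec5a were called higher at all 5 times under both scalings.

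Clec4e, the Mincle gene, had by far the widest range of the 7. At T2.5 it stood at 722, 1194 and 795 CPM in the Cop1-floxed libraries, against 25.3, 39.0 and 25.4 CPM at T0. In WT libraries it stood at 791, 608 and 780 CPM at T2.5, against 18.4, 22.1 and 25.5 CPM at T0. Every LPS library was far above every untreated one. The rise over T0 was 30.2-fold at T2.5, 56.9-fold at T4, 86.7-fold at T6, 90.3-fold at T9 and 63.3-fold at T13 in Cop1-floxed cells (log2 fold change 6.50 ± 0.230 (SE) at T9, adjusted p = 1.39e-21). In WT cells it was 33.0-, 61.3-, 87.9-, 113- and 68.3-fold at the same times (log2 fold change 6.82 ± 0.233 at T9, adjusted p = 5.73e-22). The gene was still rising between T2.5 and T4 (log2 fold change 0.91 ± 0.182 in Cop1-floxed cells, adjusted p = 0.000192, and 0.89 ± 0.182 in WT cells, adjusted p = 0.000247). It was lower at T13 than at T9, by a log2 fold change of -0.51 ± 0.181 in Cop1-floxed (adjusted p = 0.0167) and -0.73 ± 0.181 in WT cells (adjusted p = 0.00105).

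Clec5a, the DAP12-coupled receptor, had the second largest rise. Its Cop1-floxed libraries stood at 90.9, 133 and 99.0 CPM at T6, against 19.1, 20.4 and 16.2 CPM at T0. Its WT libraries stood at 71.5, 69.3 and 74.8 CPM at T6, against 10.8, 8.51 and 10.1 CPM at T0. No LPS library of either genotype came down to the untreated level. The log2 fold changes over T0 were 1.99, 2.38, 2.53, 2.22 and 1.31 from T2.5 to T13 in Cop1-floxed cells, and 2.34, 2.69, 2.87, 2.89 and 1.75 in WT cells, with standard errors of 0.140 to 0.149 and the largest adjusted p 1.19e-09. Between T9 and T13 the level fell to 48.9, 50.5 and 39.3 CPM in Cop1-floxed cells, against 86.8, 84.2 and 88.2 CPM at T9 (log2 fold change -0.90 ± 0.138, adjusted p = 1.78e-06). In WT cells it fell to 32.5, 31.3 and 35.0 CPM at T13, against 63.9, 70.0 and 85.3 CPM at T9 (-1.15 ± 0.139, adjusted p = 2.8e-08).

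**Figure D2:**
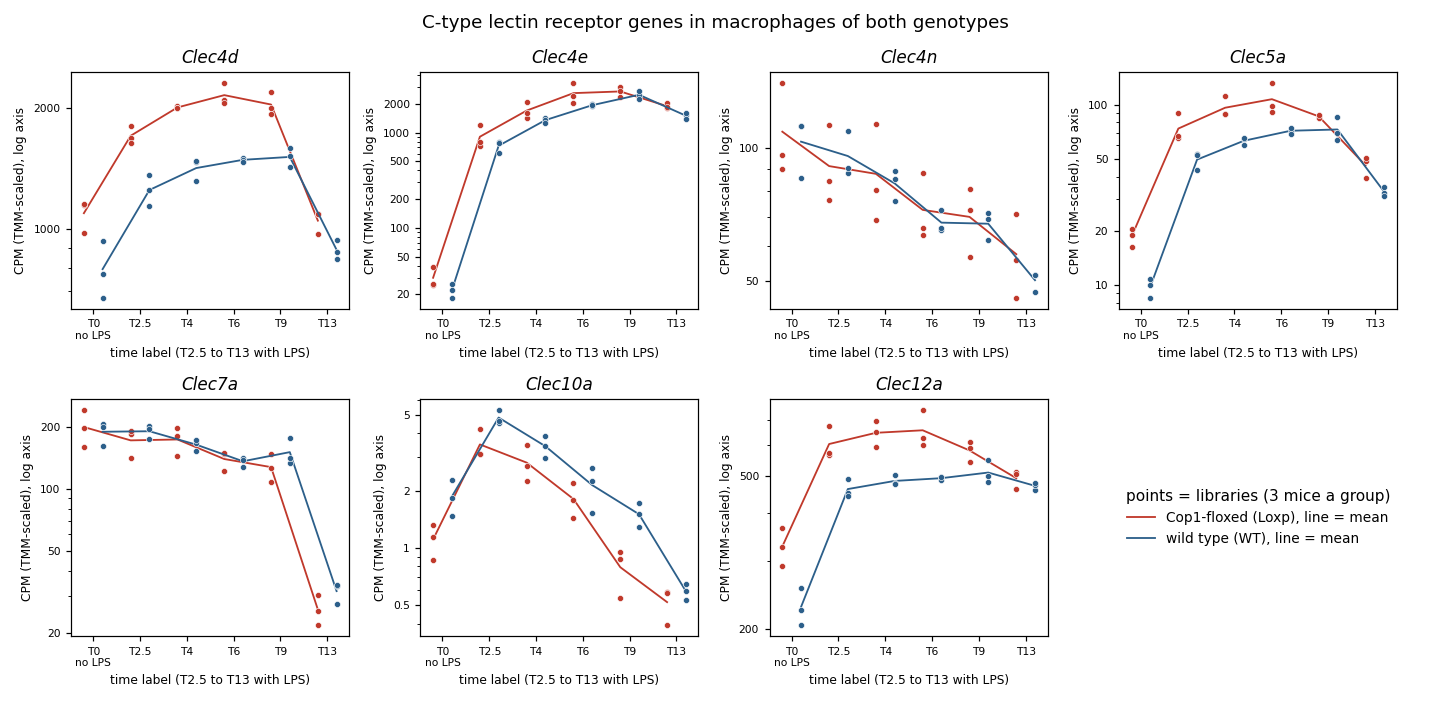
Each panel plots 1 receptor gene in CPM of TMM-scaled totals on a log axis against the time label, with Cop1-floxed (Loxp) libraries in red on the left and WT libraries in blue on the right of each time, and lines through group means. Clec4e climbs furthest, from 18.4 CPM in the lowest untreated to 3340 CPM in the highest LPS library. Clec4d and Clec5a rise and come down by T13, where Clec4d is near its T0 level and Clec5a still above it. Clec7a is modestly lower at T6 and drops to 21.8 to 34.1 CPM at T13.

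Clec4d, the MCL gene that neighbours Clec4e and whose product pairs with Mincle, moved within a narrow range. Its Cop1-floxed libraries stood at 2098, 2318 and 2057 CPM at T6, against 1151, 1159 and 979 CPM at T0. Its WT libraries stood at 1506, 1487 and 1474 CPM at T6, against 776, 936 and 675 CPM at T0. Log2 fold changes over T0 lay between 0.64 and 0.98 at T2.5 to T9 in Cop1-floxed cells and between 0.65 and 0.93 in WT cells, all with adjusted p of at most 7.47e-07, but scaling by library totals left between -0.06 and 0.04 of them. At T13 the level was 1089, 1091 and 972 CPM in Cop1-floxed cells and 845, 943 and 879 CPM in WT cells. Neither differed from T0 beyond the threshold (log2 fold change -0.06 ± 0.0942 in Cop1-floxed cells, adjusted p = 0.577, and 0.16 ± 0.0943 in WT cells, adjusted p = 0.134). With library totals it was lower than at T0 in both (-0.68, adjusted p = 5.75e-08 in Cop1-floxed, and -0.55, adjusted p = 2.22e-06 in WT cells), and 3 of 18 alternatives called it higher in WT cells. The drop between T9 and T13 was called in both genotypes, with -0.96 ± 0.0951 in Cop1-floxed (adjusted p = 5.42e-10) and -0.77 ± 0.0948 in WT cells (adjusted p = 4.05e-08).

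Clec12a, the inhibitory receptor, was higher than at T0 at every LPS time with TMM scaling, but not with library totals at T4 to T13 in Cop1-floxed cells or at T4 and T6 in WT cells. At T2.5 it stood at 566, 675 and 575 CPM in Cop1-floxed libraries, against 327, 366 and 291 CPM at T0. In WT libraries it stood at 452, 443 and 492 CPM at T2.5, against 205, 256 and 224 CPM at T0. The untreated and LPS libraries did not overlap at any time. Its log2 fold changes over T0 were 0.59 to 1.00 in Cop1-floxed cells (the lowest at T13, adjusted p = 2.15e-06) and 1.02 to 1.16 in WT cells, while library totals took them to -0.12 at T9 in Cop1-floxed and 0.15 at T6 in WT cells. The ratio of Clec5a to Clec12a RPKM within a library was 0.0881 to 0.104 at T6 in Cop1-floxed cells, against 0.0324 to 0.0340 at T0. In WT cells it was 0.0826 to 0.0878 at T6, against 0.0193 to 0.0307 at T0. At T6 the Clec5a transcript had thus gained on that of Clec12a under any scaling. By T13 the ratio was down to 0.0453 to 0.0634 in Cop1-floxed and 0.0383 to 0.0425 in WT cells. Protein was not measured.

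Clec7a, the beta-glucan receptor Dectin-1, was modestly lower than at T0 by T6 and had fallen steeply by T13, where it was still measured in every library. Its libraries stood at 25.5, 21.8 and 30.5 CPM at T13 in Cop1-floxed cells, against 126, 108 and 148 CPM at T9 and 241, 159 and 197 CPM at T0. In WT cells they stood at 27.7, 33.8 and 34.1 CPM at T13, against 133, 141 and 177 CPM at T9 and 206, 161 and 199 CPM at T0. The T13 libraries lay far below all others in both genotypes. The step between T9 and T13 was a log2 fold change of -2.30 ± 0.160 in Cop1-floxed (adjusted p = 2.96e-13) and -2.24 ± 0.159 in WT cells (adjusted p = 4.02e-13). Against T0 the gene was at 0.130 times its level in Cop1-floxed (log2 fold change -2.94 ± 0.164, adjusted p = 2.7e-16) and at 0.169 times in WT cells (-2.57 ± 0.161, adjusted p = 4.69e-15). The ratio of Clec7a to Clec4n RPKM within a library was 0.168 to 0.363 at T13 in Cop1-floxed cells, against 0.817 to 1.43 at T9, and 0.319 to 0.36 in WT cells, against 1.02 to 1.40 at T9. Before T13 there was a smaller decline, called at T6 in Cop1-floxed (-0.52, adjusted p = 0.00324) and WT cells (-0.48, adjusted p = 0.0061) and at T9 in Cop1-floxed cells (-0.65, adjusted p = 0.000369). At T9 in WT cells it was -0.33 ± 0.151 (adjusted p = 0.053), which passed in 7 of 18 alternatives, among them the mouse as a replicate block (adjusted p = 0.00485) and library totals (-1.23, adjusted p = 2.44e-08). Both T6 calls were lost when replicate 1 of their own genotype was left out (-0.41, adjusted p = 0.0634 in Cop1-floxed cells, and -0.36, adjusted p = 0.094 in WT cells).

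Clec4n, the mannan receptor Dectin-2 next to Clec4d, declined slowly. At T13 it stood at 56.0, 71.0 and 45.9 CPM in Cop1-floxed libraries, against 141, 89.7 and 96.6 CPM at T0. In WT libraries it stood at 47.4, 51.8 and 51.8 CPM at T13, against 113, 112 and 85.7 CPM at T0. The groups of T13 and T0 did not overlap. The fall passed the threshold from T6 on, with log2 fold changes of -0.59, -0.64 and -0.92 at T6, T9 and T13 in Cop1-floxed cells and -0.61, -0.62 and -1.04 in WT cells (largest adjusted p = 0.00517, SE 0.183 to 0.184). At T4 it was -0.32 in Cop1-floxed (adjusted p = 0.125) and -0.31 in WT cells (adjusted p = 0.128), and both were called with the mouse as a replicate block (adjusted p = 0.0317 and 0.0343). The T9 call in WT cells was lost without WT replicate 2 (-0.52, adjusted p = 0.0562).

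Clec10a, the galactose-type receptor, was the lowest of the 7 genes, with 172 counts over the 3 untreated Cop1-floxed libraries. It stood at 4.24, 3.13 and 3.14 CPM at T2.5 in Cop1-floxed cells, against 1.14, 0.865 and 1.32 CPM at T0. In WT cells it stood at 4.57, 4.66 and 5.33 CPM at T2.5, against 1.47, 2.29 and 1.83 CPM at T0. The rise at T2.5 (log2 fold change 1.66 ± 0.222 in Cop1-floxed, adjusted p = 1.36e-07, and 1.39 ± 0.213 in WT cells, adjusted p = 1.38e-06) gave way to a fall by T13 (-1.09 ± 0.264, adjusted p = 0.000616, and -1.63 ± 0.249, adjusted p = 1.06e-06). At T6 the gene was called higher in Cop1-floxed cells (0.70, adjusted p = 0.00952), but not without Cop1-floxed replicate 1 (0.54, adjusted p = 0.126) or replicate 2 (0.57, adjusted p = 0.0693), and it was -0.34 with library totals. The near-identical gene Mgl2, whose reads could be confused with it, had at most 28 counts over the 3 libraries of any group. At T13 Mgl2 had 7, 4 and 10 counts in the Cop1-floxed libraries and 6, 15 and 7 in the WT libraries. Clec10a itself had only 54 counts over the 3 Cop1-floxed and 66 over the 3 WT libraries at T13.

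Between neighbouring LPS times the members' calls at the last step were all in 1 direction. Of the 7, 5 were called lower at T13 than at T9 in Cop1-floxed cells and 6 in WT cells. Over all genes 55.6% were called at this step in Cop1-floxed cells (27.3% higher and 28.3% lower) and 55.9% in WT cells (28.4% higher and 27.5% lower). Clec10a was the member not called in Cop1-floxed cells beside Clec4n, with -0.61 (adjusted p = 0.0759) and -0.28 (adjusted p = 0.2), and Clec12a was the one in WT cells, with -0.11 (adjusted p = 0.307). The Clec12a call of -0.24 in Cop1-floxed cells turned to 0.09 with library totals, and 3 of 7 were called there without Cop1-floxed replicate 3. The Clec4n call of -0.42 in WT cells (adjusted p = 0.0496) was lost without any 1 of the 3 WT mice. Earlier steps moved fewer genes. Between T2.5 and T4 Clec4e and Clec5a rose in Cop1-floxed cells (background 31.7%) and Clec4e was the 1 gene called in WT cells (30.7%). The Clec5a call, 0.38, was lost without Cop1-floxed replicate 1 (adjusted p = 0.153) or replicate 3 (adjusted p = 0.118). Between T4 and T6 Clec4e rose and Clec10a fell in both genotypes (30.0% in Cop1-floxed and 24.7% in WT cells). Both Cop1-floxed calls were lost without Cop1-floxed replicate 3, and both WT calls without any 1 of the 3 WT mice. Between T6 and T9 Clec10a fell in Cop1-floxed cells (-1.17 ± 0.260, adjusted p = 0.00183, background 16.0%). In WT cells edgeR called 0 of 7 at that step (background 11.1%), with 1 at an unadjusted p below 0.05 (Clec10a, 0.0363) and 0 with DESeq2 or limma.

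Comparing Cop1-floxed with WT cells at each time asks which receptor genes differ with the Cop1 genotype. Clec4d, Clec5a and Clec12a were higher in Cop1-floxed macrophages untreated and at T2.5, T4 and T6, Clec10a was lower at T0 and T9, and Clec4e, Clec4n and Clec7a passed the threshold at no time. At T0, 3 of the 7 were called higher (5.60% of all genes) and 1 lower (3.97%). With LPS, 3 were called higher at T2.5 (1.45% higher, 2.45% lower over all genes), 3 at T4 (2.11% and 2.75%) and 3 at T6 (4.19% and 3.61%). At T9 1 was higher (0 with library totals) and 1 lower (5.92% and 4.53%), and at T13 1 was higher (1.37% and 1.73%). With library totals 3 were higher and 1 lower at T0, 1 was higher at T2.5, 2 at T4, 1 at T6 and 0 at T13. The median log2 fold change of the 7 genes was 0.44, 0.32, 0.33, 0.41, 0.12 and 0.20 from T0 to T13, beside -0.02 to 0.06 over all genes.

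Clec5a had the largest of these differences at T0, with 19.1, 20.4 and 16.2 CPM in Cop1-floxed libraries, against 10.8, 8.51 and 10.1 CPM in WT libraries (1.89-fold, log2 fold change 0.92 ± 0.143, adjusted p = 6.94e-05). With LPS the log2 fold changes were 0.57, 0.61, 0.58, 0.24 and 0.49 from T2.5 to T13. The one at T9 did not pass (adjusted p = 0.284), and the one at T13 (adjusted p = 0.0449) was lost in 5 of the 6 fits that leave out a mouse. Clec4d was higher by 0.46 ± 0.0944 at T0 (1.38-fold, adjusted p = 0.00138), 0.45 at T2.5, 0.50 at T4, 0.54 at T6 and 0.43 at T9 (adjusted p = 0.00312), and its libraries did not overlap between genotypes at any time. At T13 its difference was 0.24 ± 0.0943 (adjusted p = 0.211). Clec12a was higher by 0.52 ± 0.0937 at T0 (327, 366 and 291 CPM in Cop1-floxed, against 205, 256 and 224 CPM in WT libraries, adjusted p = 0.000391). Its differences at T2.5, T4 and T6 were 0.39, 0.42 and 0.41, and at T9 and T13 they were 0.19 (adjusted p = 0.207) and 0.07 (adjusted p = 0.922).

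Clec10a was lower in Cop1-floxed cells at T0 (1.14, 0.865 and 1.32 CPM, against 1.47, 2.29 and 1.83 CPM in WT cells, log2 fold change -0.74 ± 0.224, adjusted p = 0.0323). At T9 it stood at 0.879, 0.544 and 0.951 CPM in Cop1-floxed cells, against 1.51, 1.28 and 1.72 CPM in WT cells (-0.92 ± 0.260, adjusted p = 0.0204). Both calls rest on few counts, and were lost without any 1 of several mice (adjusted p up to 0.181 at T0 and 0.130 at T9). The difference of Clec4e, the gene LPS moved most, was 0.12 to 0.44 at the 6 times with standard errors of 0.180 to 0.185 and adjusted p of at least 0.15. Clec7a differed by -0.30 to 0.08 (SE 0.15 to 0.156) and Clec4n by -0.08 to 0.20 (SE 0.181 to 0.184).

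**Figure D3:**
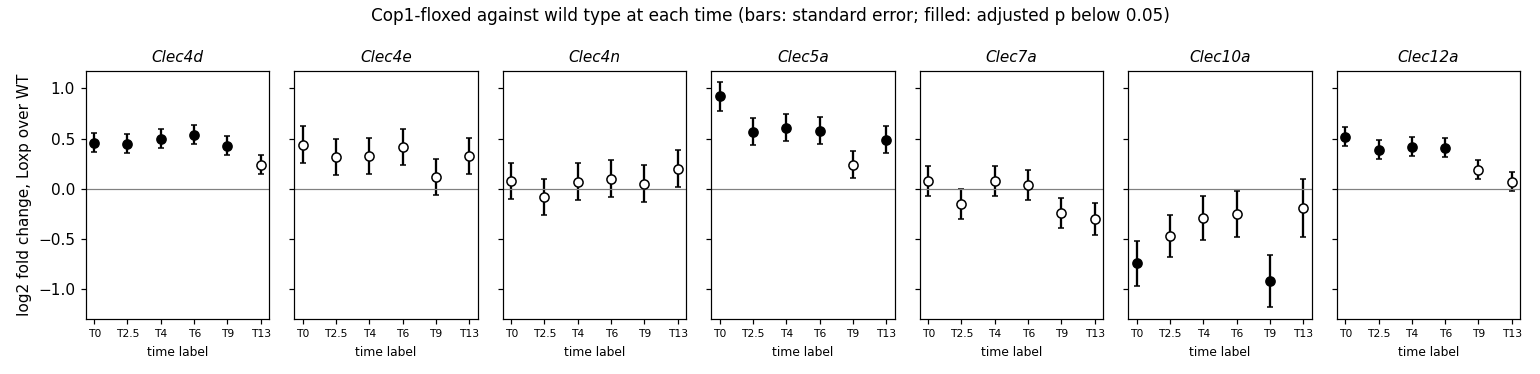
Points give the log2 fold change of Cop1-floxed (Loxp) over WT for each receptor gene at the 6 time labels, with standard errors as bars, and filled points have an adjusted p below 0.05. Clec4d, Clec5a and Clec12a lie above 0 throughout, with 0.92 for Clec5a at T0 the largest value, and Clec10a lies below 0.

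How far the T0 differences stand out depends on the estimate of spread. Fitted on the 6 untreated libraries alone, they were 0.42 for Clec4d (adjusted p = 0.26), 0.87 for Clec5a (adjusted p = 0.067), 0.47 for Clec12a (adjusted p = 0.16) and -0.79 for Clec10a (adjusted p = 0.24), so these passed no longer. With edgeR, 0 members were called at T2.5 and 0 at T9 without Cop1-floxed replicate 2 (lowest adjusted p 0.0564 and 0.0519, both for Clec4d), and 1 was called at T6. The T9 library of that mouse detected 15045 genes, against 17622 to 19693 in all other libraries. Without that library alone, 3 members were called higher at T2.5, 3 at T6 and 1 at T9, and 0 lower. At T2.5, 1 member was called without Cop1-floxed replicate 1, WT replicate 2 or WT replicate 3. There, 2 were called without Cop1-floxed replicate 3 and 3 without WT replicate 1. When the counts of the 6 libraries of a mouse were added, to give 1 value per mouse, 3 of 7 were higher in Cop1-floxed mice (2.37% of all genes higher and 4.95% lower). These were Clec4d (0.39 ± 0.0556, adjusted p = 0.0119), Clec5a (0.46 ± 0.0946, adjusted p = 0.029) and Clec12a (0.27 ± 0.0638, adjusted p = 0.0425). Without Cop1-floxed replicate 1 or WT replicate 3 these sums no longer passed (Clec4d adjusted p = 0.0589 and 0.0676), and with the replicate number as a block Clec4d alone did. Leaving out Cop1-floxed replicate 2, Cop1-floxed replicate 3 or WT replicate 2 left 1 member called higher. Leaving out WT replicate 1 left 2 higher and added 1 lower. Over 15 alternatives for the sums, Clec4d was called higher in 12, Clec5a in 7 and Clec12a in 5. With library totals Clec4d and Clec5a were called higher and Clec10a lower (-0.53, adjusted p = 0.0489). At T4, 1 of the 3 calls was left without WT replicate 3.

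Other transcripts moved with genotype in the same libraries. The summed macrophage markers were 23900 to 25100 CPM at T0 in Cop1-floxed cells, against 18600 to 20200 CPM in WT cells, and did not overlap between genotypes until T13 (20700 to 22800 CPM, against 20500 to 21900 CPM). The 14 stromal and endothelial markers summed to 125 to 196 CPM at T0 in Cop1-floxed cells, against 383 to 896 CPM in WT cells, and the 12 dendritic cell markers to 35.2 to 55.7 CPM, against 53.5 to 130 CPM. The 12 neutrophil and immature myeloid markers summed to 92.0 to 102 CPM at T0 in Cop1-floxed cells, against 66.1 to 152 CPM in WT cells. Their part in the receptor differences was not tested. In bulk libraries fewer cells of a type and less RNA per cell cannot be told apart.

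The change from T0 was then compared between genotypes with an F test over the 5 LPS times. EdgeR called 0 of the 7 genes, with 1 at an unadjusted p below 0.05 (Clec12a, 0.0172, adjusted p = 0.438) and 0 with DESeq2 or limma, and 0.599% of all genes were called. The LPS responses of both genotypes were therefore not shown to differ.

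Among the partners of the receptors, Fcer1g was higher than at T0 at every LPS time in both genotypes. Its mean was 1780 ± 171 RPKM at T13 in Cop1-floxed cells, against 413 ± 16.5 RPKM at T0, and 1720 ± 127 RPKM in WT cells, against 386 ± 82.6 RPKM at T0 (SD, n = 3). The log2 fold change was 2.05 ± 0.107 in Cop1-floxed (adjusted p = 5.62e-17) and 2.12 ± 0.107 in WT cells (adjusted p = 2.04e-17). Tyrobp, the partner of Clec5a, was abundant at T0 (1440 RPKM on average in either genotype) and was lower at T13, with a log2 fold change of -0.38 in Cop1-floxed (adjusted p = 0.00351) and -0.37 in WT cells (adjusted p = 0.00416). In WT cells it was also lower at T6 (-0.30, adjusted p = 0.0176) and T9 (-0.43, adjusted p = 0.000953), where Cop1-floxed cells had -0.07 (adjusted p = 0.596) and -0.19 (adjusted p = 0.136), and the difference between genotypes in its LPS change was not called (F test, adjusted p = 0.951). Its WT libraries of T6 and T13 overlapped with those of T0, while those of WT T9 and Cop1-floxed T13 did not. Hcst, which encodes the adaptor DAP10, lay between 13.2 and 17.5 RPKM in all group means and was called at neither T9 nor T13.

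Of 16 kinases and downstream parts, 10 were called higher and 5 lower at T9 in each genotype, and 10 higher and 2 lower at T13. Over all genes 32.5% were called higher and 38.4% lower at T9 in Cop1-floxed cells, and 32.3% and 37.9% in WT cells. At T13 these shares were 30.8% and 35.0% in Cop1-floxed cells, and 32.6% and 34.7% in WT cells. The median log2 fold change of the kinases and downstream parts at T9 was 0.51 in Cop1-floxed and 0.56 in WT cells, beside -0.13 and -0.14 over all genes. Malt1, the protease of the Card9 complex, had a log2 fold change of 4.88 ± 0.173 at T9 in Cop1-floxed and 5.37 ± 0.178 in WT cells. For the Src-family kinases Src and Lyn it was 4.07 and 3.28 in Cop1-floxed, and 4.02 and 3.13 in WT cells. Nfatc2, a calcium-regulated transcription factor, was lower, at -2.68 in Cop1-floxed and -2.90 in WT cells. Syk and Card9, chosen for their place in the pathway and not by size, moved in opposite directions. Syk averaged 168 RPKM at T9 in Cop1-floxed cells, against 46.1 RPKM at T0, and 158 RPKM in WT cells, against 41.5 RPKM at T0 (log2 fold change 1.80 and 1.86). Card9 fell by T9, by -1.28 ± 0.115 in Cop1-floxed (adjusted p = 1.84e-11) and -1.44 ± 0.115 in WT cells (adjusted p = 1.29e-12), and at T13 was at -0.15 (adjusted p = 0.245) and -0.25 (adjusted p = 0.0486).

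Of 6 phosphatase genes, 4 were higher and 1 lower at T9 in each genotype, beside the same shares over all genes. The lower one was Inpp5d, the lipid phosphatase SHIP1, at -1.15 ± 0.110 in Cop1-floxed and -1.57 ± 0.111 in WT cells, and the list's median was 0.96 and 0.94. Between genotypes, Inpp5d (0.37, adjusted p = 0.0244) and Inppl1 (0.47, adjusted p = 0.0431) were called higher in Cop1-floxed cells at T9. Their libraries overlapped between genotypes, and 5.92% of all genes were called higher there. Ptprc was called higher at T0 (0.53, adjusted p = 0.0273, beside 5.60% of all genes). At T13 Inpp5d was higher by 0.57 in Cop1-floxed and 0.56 in WT cells, which turned to -0.05 and -0.16 with library totals. The largest changes of the list at T9 were rises of Ptprj (1.98 in Cop1-floxed and 2.34 in WT cells) and Ptprc (1.84 and 2.39). Ptpn6, which encodes SHP-1, a phosphatase that inhibitory receptors recruit, was higher by 1.36 at T9 in Cop1-floxed and 1.26 in WT cells, and by 2.03 and 2.21 at T13. Of 35 other C-type lectin receptor genes 23 were measured well enough to test, and 14 were higher and 6 lower at T13 in Cop1-floxed cells, and 15 higher and 6 lower in WT cells, beside 30.8% and 35.0% of all genes in Cop1-floxed and 32.6% and 34.7% in WT cells (median log2 fold change 1.14 and 1.29, beside -0.11 and -0.08 over all genes). The largest rises at T9 were in Klrk1, the NKG2D receptor (log2 fold change 8.29 ± 0.302 in Cop1-floxed and 9.06 ± 0.324 in WT cells), Cd69, an early activation marker (7.18 and 9.56), and Olr1, which takes up oxidised LDL (4.58 and 5.10). Between genotypes, Mrc2, a collagen receptor, was lower in Cop1-floxed cells at all 6 times (log2 fold change -1.31 to -1.78), together with the stromal marker sum given above, and its link to that sum was not tested.

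**Figure D4:**
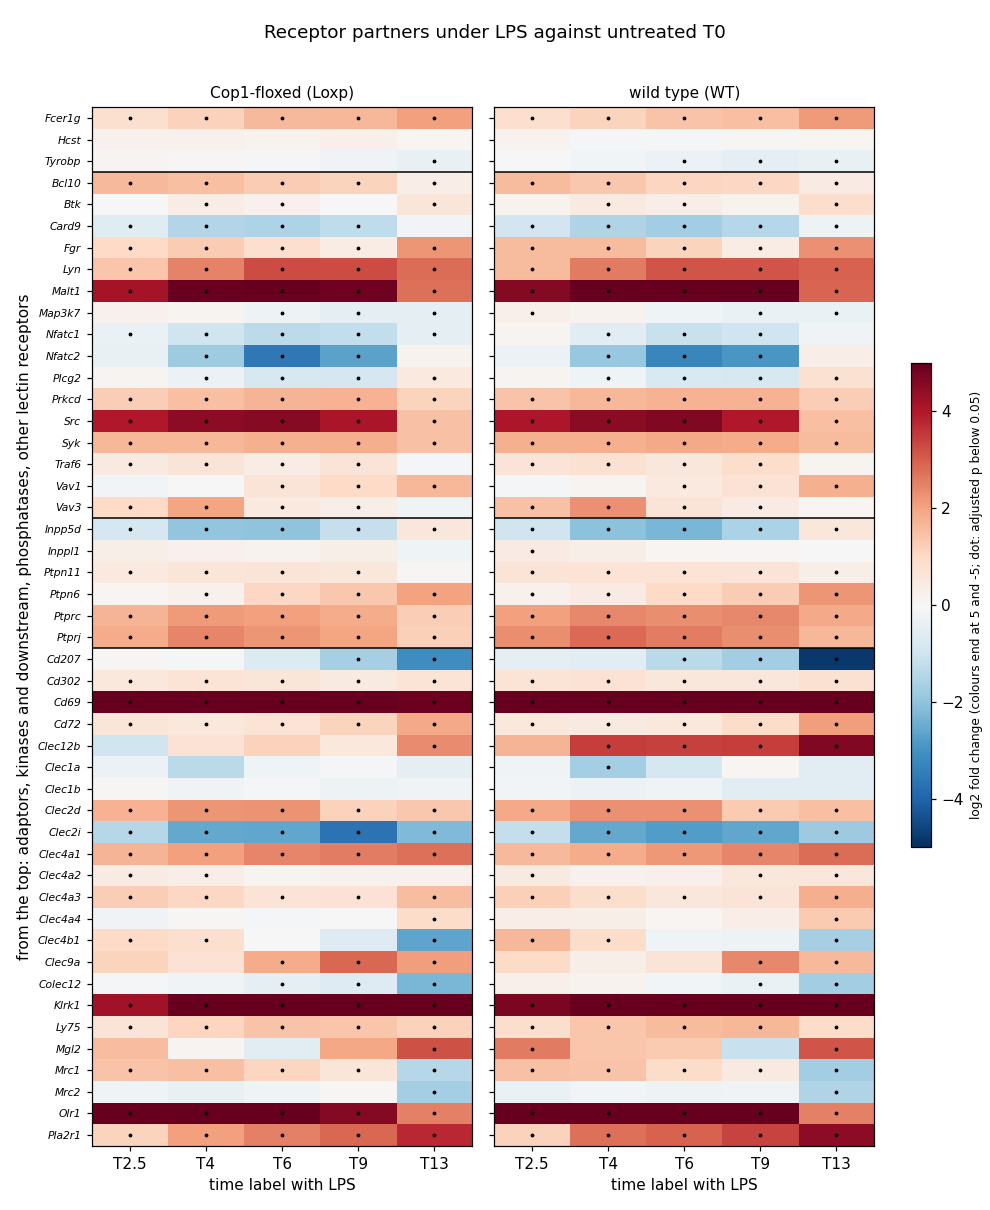
Colours give the log2 fold change of LPS over untreated T0 for adaptors, kinases and downstream parts, phosphatases and the 23 tested other lectin receptor genes (rows) at 5 LPS times, with Cop1-floxed (Loxp) on the left and WT on the right, and dots mark an adjusted p below 0.05. Malt1, Src, Klrk1, Cd69 and Olr1 are deep red, while Card9 and Inpp5d are blue until T9.

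The genes whose pattern was most like that of each receptor were sought among 9391 genes by Pearson r over the 12 group means of log2 CPM, as a description. Clec4e was followed most closely, by Lacc1 and Sod2 (r = 0.998 each) and Mndal (0.996). For Clec5a the nearest were Smg8 (0.987), Clint1 and Anxa5 (0.983 each), and for Clec4d they were Atp6v1h (0.981), Chmp2b (0.98) and Nae1 (0.978). Clec7a was nearest to Maged1 (0.988), Rsrc1 (0.985) and Arap2 (0.983), and Clec4n to Cltb (0.989), Ctnnb1 (0.988) and Hgf (0.981). Clec12a was nearest to Nckap1l (0.98), Lipn (0.979) and Arf6 (0.975), and Clec10a, the lowest of the 7, to Ahctf1 (0.955), Rin3 and Mmd (0.953 each). Within the family, Clec5a and Clec12a were the most alike pair (r = 0.96), Clec4e and Clec4n went furthest apart (-0.70), and the neighbours Clec4d and Clec4n were unrelated in pattern (-0.01). The group means share the libraries, the mice and the scaling.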

How the data were processed

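Polyadenylated RNA of 36 cultures was sequenced, 3 mice in each of 12 groups, and each mouse of a genotype was sampled at every time. The authors deposited counts of uniquely aligning reads per Entrez gene model and RPKM adjusted by size factors, per the file headers. The submitters' processing notes name GSNAP as aligner and GRCm38 as build. No version, annotation release or strand setting is given in the sources used here. Reads of overlapping genes can therefore not be told apart. Gene sizes were taken from the deposited gene table.

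Counts were tested with edgeR 4.0.16 in R 4.3.3 (quasi-likelihood test, TMM scaling, its filter on low counts), 1 coefficient per group over all 36 libraries, leaving 15685 genes; counts summed per mouse left 17182. Benjamini-Hochberg adjustment ran over all genes tested, with calls below 0.05. Standard errors of log2 fold changes were derived from the test, as the absolute log2 fold change divided by the square root of its F statistic. The edgeR fit was tried on simulated counts for Cop1-floxed against WT at T0 only, and the other comparisons were not simulated. Alternatives included DESeq2 1.42.0, limma 3.58.1 on log2(RPKM + 1) and log2(RPKM + 0.1), other scalings and filters, and leaving out mice. The mouse was the block in the paired fit for LPS: over 90 pairs of times, deviations of the same mouse correlated with a median r of 0.24 (-0.222 to 0.621). Replicates differed beyond sampling noise (chi-square per degree of freedom at least 8.5).

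The genes and lists were chosen with earlier results of these data known. All 7 receptors and the 3 adaptors are named, with Syk and Card9 added for their place in the pathway. From each other list up to 4 genes per comparison were picked by the size of their called change. Not all of these are named, and not for every comparison. Promoter windows are RefSeq's, build GRCm38.p6. Protein sequences were not used here, and 1 gene of the kinase list is not reported here.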

Additional observations from a re-analysis of the deposited data

Results flagged for a closer look

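Clec4d moved in opposite directions between T13 and T0 in the mice of the 2 genotypes, which drew attention to it. All 3 Cop1-floxed mice were lower at T13 (log2 change -0.09 to -0.01) and all 3 WT mice were higher (0.01 to 0.38), and the mean changes differed by -0.23. The difference of these per-mouse changes was not tested. In edgeR's quasi-likelihood fit the same contrast was -0.22 ± 0.133 (adjusted p = 0.627), and neither genotype's own change passed the threshold. With library totals both genotypes were lower at T13 (-0.68 in Cop1-floxed and -0.55 in WT cells).

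Cd69, an activation marker of the C-type lectin fold, differed between genotypes in its response over the LPS times (edgeR interaction F test, adjusted p = 0.00986). At T0 it stood at 2.94, 13.4 and 7.71 CPM in Cop1-floxed libraries, against 0.868, 2.11 and 1.39 CPM in WT libraries (log2 fold change 2.5 ± 0.35, adjusted p = 1.9e-05), and the groups did not overlap. At the LPS times it was called at none of the 5 in edgeR, with log2 fold changes of -0.16 to 0.35. The interaction was lost without Cop1-floxed replicate 2 (adjusted p = 0.136) or replicate 3 (0.134), and without WT replicate 1 (0.204) or replicate 3 (0.236). The T0 difference was lost when fitted on the 6 untreated libraries alone (adjusted p = 0.0966).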

How the results depend on the processing

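Over 18 alternative settings, edgeR unless named, values of the 7 genes kept their direction and side of the threshold in 1194 of 1250 cases for LPS, 675 of 750 for genotype at a time, 303 of 338 for steps between times, 76 of 104 for sums per mouse and 118 of 118 for the interaction. The cause of the changes was not tested.

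Library totals, which shift all genes down under LPS, turned the sign of Clec4d in Cop1-floxed (T6 -0.06, T9 -0.05) and WT cells (T2.5 -0.01, T4 -0.05, T6 -0.05, T13 -0.55), of Clec12a in Cop1-floxed cells (T6 -0.04, T9 -0.12, T13 -0.03, T13 over T9 0.09), of Clec10a at T6 (-0.34 in Cop1-floxed, -0.75 in WT) and of Clec7a at T2.5 in WT cells (-0.66). They did so for Ptpn11 at T2.5 and T4 (-0.14 and -0.28 in Cop1-floxed, -0.03 and -0.21 in WT cells) and Inpp5d at T13 (-0.05 in Cop1-floxed, -0.16 in WT). Between genotypes they turned Clec4n (T0 -0.04, T4 -0.03, T6 -0.10, T9 -0.12, sums -0.02), Clec7a (T0 -0.05, T4 -0.02, T6 -0.16) and Clec4e (T9 -0.05). With library totals 4 members were called at T6 against T0 in Cop1-floxed cells, 1 between genotypes at T2.5, T6 and T9, 0 at T13, and over steps 3 at T13 in Cop1-floxed, 3 at T4 and 1 at T6 in WT cells.

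A minimum mean of 5 CPM turned Clec7a at T2.5 in WT cells (-0.14), Clec7a between genotypes at T6 (-0.04) and Clec4n at T9 (-0.02), and called 1 member at T9, 1 in the sums, 1 at the T6 step in either genotype, 0 at the T9 step in Cop1-floxed and 2 at the T4 step in WT cells. With no filter 1 was called at the T6 step in Cop1-floxed cells. Fitting only the groups compared called 0 between genotypes at T0 and 1 at T9, 3 at the T4 step and 1 at the T9 step in WT cells, and turned Clec7a at T6 (-0.03). DESeq2 called 2 between genotypes at T13 and 2 at the T4 step in WT cells, as did edgeR with DESeq2 size factors at that step. Limma called 3 (RPKM + 1), 2 (RPKM + 0.1) and 2 (no filter) at that step, and without a filter 0 between genotypes at T13 and 0 in the sums.

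The replicate block called 1 in the sums per mouse, 2 at the T9 step in Cop1-floxed, and 3 at the T4 step and 1 at the T9 step in WT cells. Beyond the calls given with the results, it changed no other count by over 1.5 times. Across genotypes the samples share only a number (deviations correlated at -0.3 to 0.211 over 18 pairs).

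Leaving out a mouse or library gave 3 to 4 calls between genotypes at T0, 0 to 3 at T2.5, 1 to 3 at T4 and at T6, 0 to 2 at T9, 0 to 1 at T13 and 0 to 3 in the sums. The 3 in the sums, without WT replicate 1, were 2 higher and 1 lower. For steps it gave 1 to 3 at T4, 0 to 2 at T6 and 3 to 5 at T13 in Cop1-floxed cells, and 1 to 2, 0 to 2 and, at T9, 0 to 1 in WT cells. Values not called in the fit with all libraries took both signs: Clec7a at T2.5 in WT cells (-0.10 to 0.04), and between genotypes Clec4n at T0 (-0.18 to 0.18), T2.5 (-0.28 to 0.03), T4 (-0.18 to 0.22), T6 (-0.10 to 0.15), T9 (-0.09 to 0.15) and in sums (-0.14 to 0.13), Clec7a at T0 (-0.12 to 0.20), T4 (-0.04 to 0.20), T6 (-0.06 to 0.12) and in sums (-0.14 to 0.06), and Clec4e at T9 (-0.01 to 0.18).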
